A study of Homo sapiens with 6 samples.

Results

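A set of 52 genes that build and drive mitosis was examined in RNA-Seq counts from HepG2, an established human liver cancer cell line. The genes encode mitotic kinases, spindle checkpoint and anaphase-promoting complex (APC/C) factors, chromosomal passenger and kinetochore proteins, kinesins, spindle factors, cytokinesis proteins, topoisomerase II alpha and 3 transcription regulators of mitotic genes. They were picked by name, and each was found by its Ensembl identifier among the 20422 genes of the deposited count table. Of the 52 genes, 51 had enough counts to be tested, out of 12386 genes tested in all.

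The study asked how the microprotein APPLE, encoded by the long non-coding RNA ASH1L-AS1, acts in liver cancer cells. Control libraries (NC, n = 3) came from HepG2 that carried the vector alone, and ORF-Flag libraries (n = 3) from HepG2 that overexpressed the APPLE reading frame fused to a Flag tag. The sample labels describe plasmid transfection and the study's methods describe lentiviral lines selected with puromycin, so both descriptions stand here. ASH1L-AS1 was not analysed here, so the groups were not checked by the level of the construct. No source used here says whether the 3 libraries of a group came from separate cultures, so the p-values measure only the spread between these libraries, which may be technical. By library, NC replicate 1 held 20081203 counts, replicate 2 held 24907524 and replicate 3 held 30088457. ORF-Flag replicate 1 held 26866148, replicate 2 held 17494668, the fewest, and replicate 3 held 27015836.

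Markers of hepatocytes were present in each library. All 10 were tested, and their summed level lay between 25560 and 26630 CPM (counts brought to the same library size, with TMM factors). The most abundant were APOB, the structural protein of low-density lipoprotein, between 7311 and 8152 CPM, and ALB, which encodes albumin, between 6714 and 7586 CPM. FGB, a fibrinogen chain, was the 1 marker of these that passed the test, higher in ORF-Flag by a log2 fold change of 0.14 (edgeR with Benjamini-Hochberg adjustment, adjusted p = 0.0232). Of 6 fibroblast markers 1 was tested, and they summed to between 0.632 and 1.04 CPM, with DCN at 0 in each library. Of the immune markers PTPRC, CD3E and MS4A1 were at 0 in each library, and of the endothelial markers KDR and TEK. A count of 0 allows up to 3 counts, which is between 0.0997 and 0.171 CPM, for counting error only. The other immune markers, LYZ, CD68 and CD14, were tested, with log2 fold changes between -0.03 and 0.29, and the 6 immune markers summed to between 1298 and 1630 CPM. LYZ, which encodes lysozyme, held nearly all of the immune sum, between 1255 and 1591 CPM. LYZ alone of the 3 passed the test, higher in ORF-Flag by a log2 fold change of 0.17 (edgeR with Benjamini-Hochberg adjustment, adjusted p = 0.0112). Of the 31-base stretches of LYZ, 46.1% also occur in another gene's transcript, and of those of CD68 93.7%, so both counts are uncertain.

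The 5 endothelial markers, of which 1 was tested, summed to 4.75, 4.16 and 5.01 CPM in NC replicates 1, 2 and 3 and to 6.56, 5.52 and 6.26 CPM in ORF-Flag, nearly all of it PECAM1. Each ORF-Flag library lay above each NC library, and PECAM1 had a log2 fold change of 0.39 (edgeR with Benjamini-Hochberg adjustment, adjusted p = 0.0958, unadjusted p = 0.00695). The 13 mitochondrially encoded mRNAs, a sign of RNA quality, summed to between 97680 and 103600 CPM, with overlapping groups, and MT-ND3 alone among them passed the test (log2 fold change 0.15, edgeR with Benjamini-Hochberg adjustment, adjusted p = 0.028). A part of these markers in the values of the mitotic genes was not tested.

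Cells enter mitosis when cyclin-dependent kinase activity switches on Polo-like and Aurora kinases, which separate the centrosomes, load kinesins onto the spindle and correct faulty attachments at kinetochores. The spindle checkpoint holds back the APC/C until each chromosome is attached, after which securin and cyclin B are destroyed, separase cuts cohesin and the midzone directs cytokinesis. Transcripts of these proteins rise together late in the cell cycle, under MuvB complexes with B-MYB and FOXM1 as activators and with RB family proteins as repressors, and proliferating liver cancer cells carry them at high levels.

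Most genes of the set had slightly lower values in ORF-Flag, and few differences passed the test. Of the 51 tested genes, 4 passed an adjusted p below 0.05 in the lower direction (edgeR's quasi-likelihood test, Benjamini-Hochberg adjustment over 12386 genes), where 1.98% of all tested genes did, and these were FOXM1, GAS2L3, UBE2C and TACC3. In the higher direction 0 passed, where 2.47% of all tested genes did. That 0 was also found with DESeq2 and limma-voom, and 0 of the 51 had an unadjusted p below 0.05 with a higher value. In the lower direction 19 of the 51 genes, or 37.3%, had an unadjusted p below 0.05, beside 9.22% of all tested genes, and the background in the higher direction was 9.29%. The median log2 fold change (ORF-Flag minus NC) of the 51 genes was -0.07, a difference of -4.92%, with 42 of the 51 below 0. Over all tested genes the median was -0.0012 and 50.5% lay below 0.

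**Figure D1:**
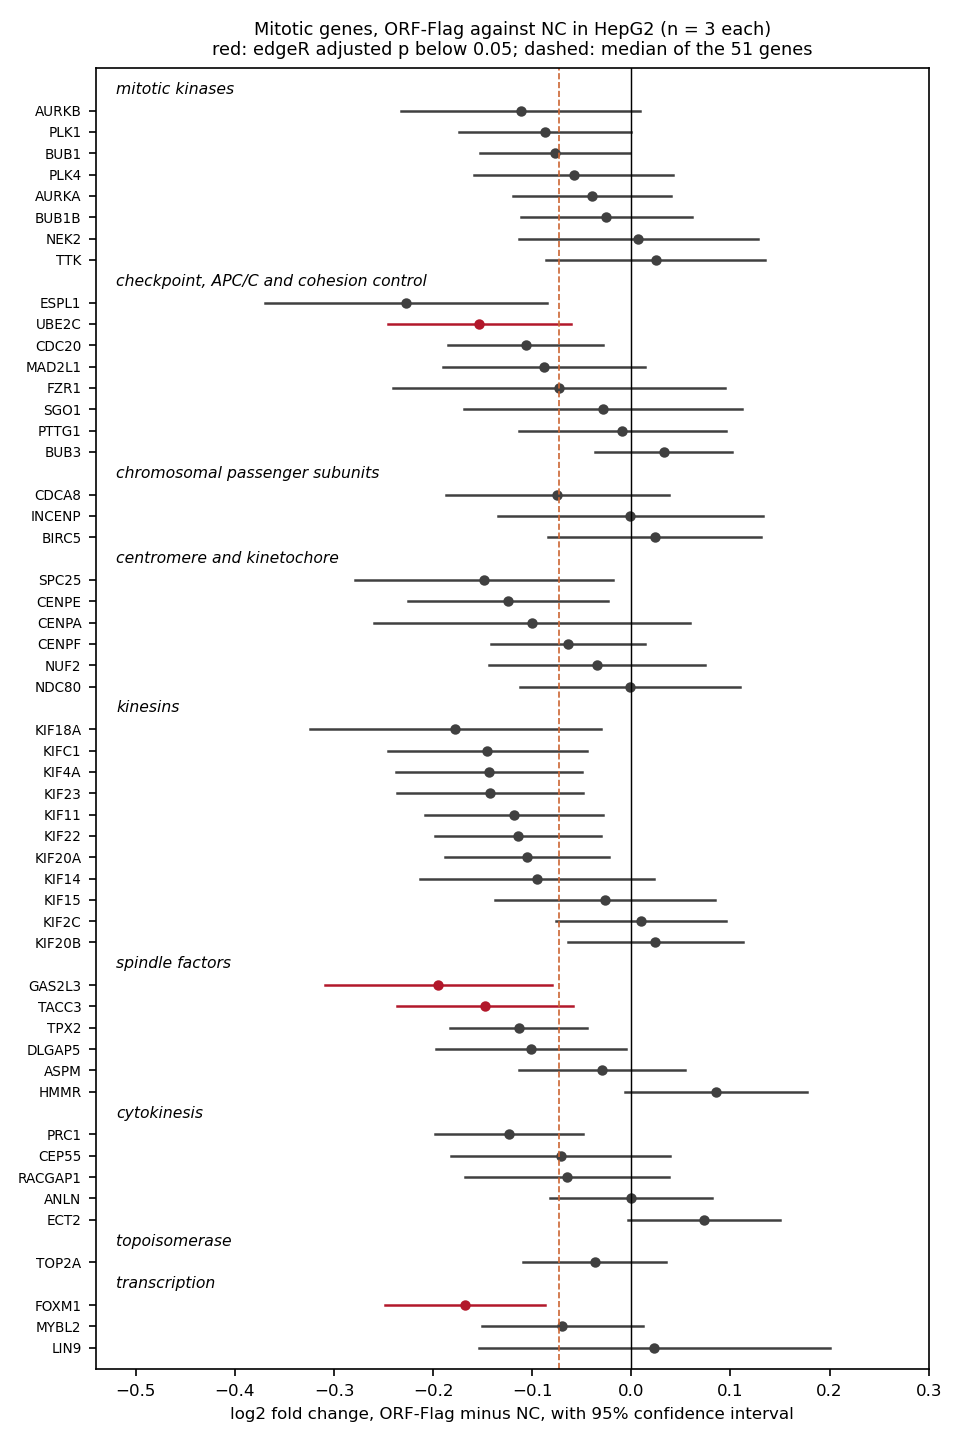
Log2 fold change of each of the 51 tested mitotic genes (horizontal axis, ORF-Flag minus NC), grouped by role and ordered within a role. Lines are 95% confidence intervals computed from edgeR's F statistic. The 4 genes in red passed an adjusted p below 0.05, and the dashed line marks the median of -0.07.

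The calls depended on which libraries were used. The number of genes of the set called lower was 2, 1 (KIFC1) and 7 when NC replicates 1, 2 and 3 were left out in turn. It was 0, 0 and 2 when ORF-Flag replicates 1, 2 and 3 were. All calls in both directions, 551 of 12386 genes with all libraries, moved too. They were 459, 267 and 1058 without NC replicates 1, 2 and 3, and 300, 278 and 199 without ORF-Flag replicates 1, 2 and 3. In these fits between 12449 and 12543 genes were tested. With DESeq2 the number of genes of the set called lower was 2, and with limma-voom 2. It rose to 9 without a filter on low counts and to 12 when each library's trends on GC content and transcript length were removed. All calls in both directions were 431 with DESeq2 and 527 with limma-voom. They rose as well, to 824 of 16367 genes without that filter and to 807 of 12386 with those trends removed. The median log2 fold change of the set stayed below 0 in each of these fits, between -0.10 and -0.05. The libraries are bulk RNA, in which fewer cells in mitosis and less mitotic RNA per cell cannot be told apart.

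In 15 of the 51 tested genes, or 29.4%, the 3 ORF-Flag libraries all lay below the 3 NC libraries, beside 10.9% of all tested genes. The reverse arrangement was seen in 1, ECT2, beside 11.5% of all tested genes. When each gene's log2 CPM was set against its own mean over the 6 libraries, the median deviation of the set was 0.06 in NC replicate 1, -0.0052 in NC replicate 2 and 0.05 in NC replicate 3. Among the ORF-Flag libraries it was -0.05 in replicate 1, -0.06 in replicate 2 and -0.0021 in replicate 3. The median of NC replicate 2 thus lay just below that of ORF-Flag replicate 3, so on this measure the groups overlapped. Over all 6 libraries, 20 genes had their highest level in NC replicate 1, 19 in NC replicate 3 and 4 in NC replicate 2, and 24 had their lowest level in ORF-Flag replicate 2. ORF-Flag replicate 2 was also the library with the fewest counts, and a part of depth in this order was not tested.

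**Figure D2:**
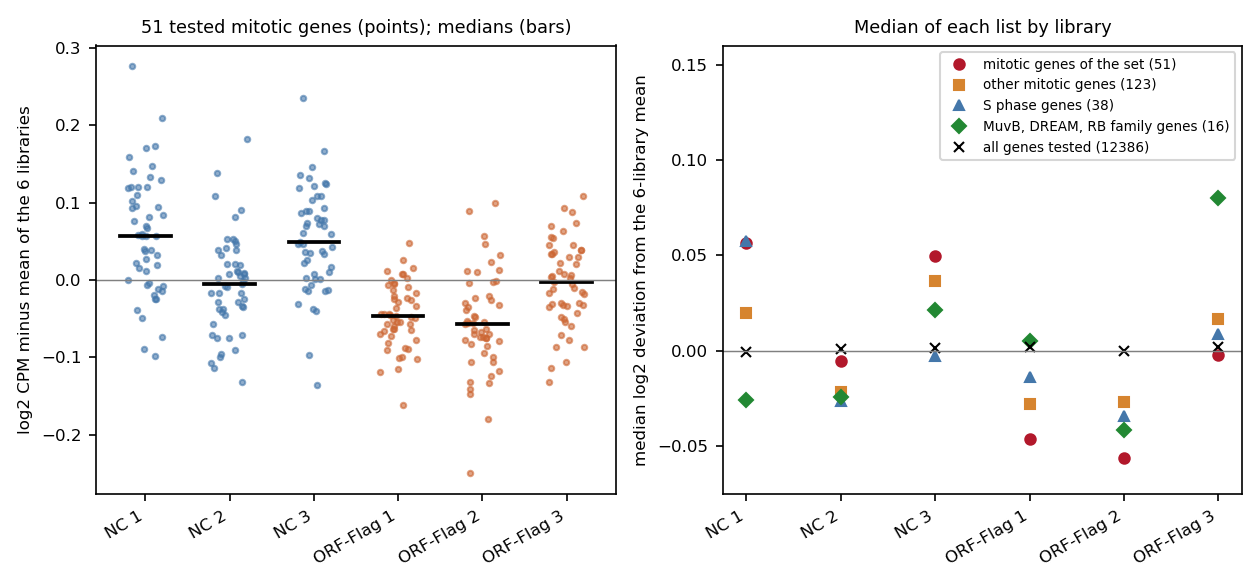
Left, log2 CPM of each of the 51 tested genes minus its mean over the 6 libraries (vertical axis) by library, NC in blue and ORF-Flag in orange, with bars at the medians, which run from -0.06 in ORF-Flag replicate 2 to 0.06 in NC replicate 1. Right, the same medians for the set, for 3 lists of other cell cycle genes and for all 12386 tested genes, which stay near 0.

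The promoters were read for the letters of elements known from late cell cycle genes. The CHR element (TTTGAA, with the variant TTCGAA) is bound by MuvB complexes, CCAAT is the box of the factor NF-Y, and GGCGGGAA carries E2F letters. RefSeq promoters (GRCh38.p14, 250 bases before to 50 after a gene's start) were matched by symbol for 44 of the 52 genes, and RACGAP1, AURKA, BIRC5, UBE2C, TTK, BUB3, FOXM1 and TPX2 had no entry. On either strand TTTGAA was found in 31 of the 44 promoters, or 70.5%, beside 15.4% of all 27305 promoters and 9.63% of the 10024 promoters of tested genes. In the 100 bases before the start it was found in 15 of the 44, or 34.1%, beside 4.64% of all promoters. CCAAT was found in 31 of the 44, or 70.5%, beside 35.7% of all promoters. TTCGAA was found in 4, or 9.09%, beside 1.45%, and GGCGGGAA in 3, or 6.82%, beside 3.18%. Among promoters of tested genes CCAAT was in 37.1%, TTCGAA in 1.8% and GGCGGGAA in 5.19%, the last near the share in the set. A match is a run of letters and not a shown binding site.

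The 120 bases before the RefSeq start are printed for the 4 genes with the smallest p among those with both TTTGAA and CCAAT and a TTTGAA in the 100 bases before the start, and for HMMR and ECT2, the 2 genes of the set with the highest fold changes in the edgeR fit of 6 libraries, chosen after their values were seen. They are printed to show where the letters lie, and since the first 4 were chosen for holding them, nothing about fold changes follows. Capitals mark the CHR letters TTTGAA and the NF-Y letters, which are CCAAT or, on the other strand, ATTGG, and each sequence runs 5′ to 3′ on the gene's strand.
PRC1 (chr15:90994536-90994655, minus strand): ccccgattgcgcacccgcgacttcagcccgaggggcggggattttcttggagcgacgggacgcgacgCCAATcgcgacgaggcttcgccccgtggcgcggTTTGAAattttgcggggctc
ESPL1 (chr12:53268179-53268298, plus strand): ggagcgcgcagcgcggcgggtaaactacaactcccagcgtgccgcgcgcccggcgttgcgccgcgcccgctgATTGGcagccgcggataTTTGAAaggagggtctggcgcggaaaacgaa
KIF4A (chrX:70289984-70290103, plus strand): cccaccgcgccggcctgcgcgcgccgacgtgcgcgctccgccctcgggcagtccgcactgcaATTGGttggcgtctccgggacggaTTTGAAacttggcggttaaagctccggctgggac
KIF23 (chr15:69414229-69414348, plus strand): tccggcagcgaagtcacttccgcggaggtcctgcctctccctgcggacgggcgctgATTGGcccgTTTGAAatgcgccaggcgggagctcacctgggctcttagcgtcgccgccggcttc
HMMR (chr5:163460512-163460631, plus strand): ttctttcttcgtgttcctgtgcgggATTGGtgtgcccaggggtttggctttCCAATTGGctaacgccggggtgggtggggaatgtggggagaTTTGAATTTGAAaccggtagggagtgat
ECT2 (chr3:172750606-172750725, plus strand): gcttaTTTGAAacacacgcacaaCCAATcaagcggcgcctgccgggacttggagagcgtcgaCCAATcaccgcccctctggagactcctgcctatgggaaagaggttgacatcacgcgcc

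In ESPL1 the first base of TTTGAA lies at -31 and that of the NF-Y letters at -48, in KIF4A at -34 and -58, and in PRC1 at -20 and -53, counted in bases from the start. In KIF23 they lie at -55 and -64, and in ECT2 the TTTGAA at -115 lies outside the 100 bases before the start. HMMR holds TTTGAA at -28 and again at -22, and in its promoter a CCAAT and an ATTGG share bases. Over the 44 promoters, 1 pair of TTTGAA and NF-Y letters shared bases. Among the genes with TTTGAA, 30 were tested, 27 lay below 0 and the median log2 fold change was -0.07. Among the 13 without it, 10 lay below 0 and the median was -0.08. These medians lay close together. Among the 24 genes with both TTTGAA and CCAAT, 23 were tested, 20 lay below 0 and the median was -0.09. A difference between these groups was not tested. The windows of GAS2L3 and TACC3 hold neither TTTGAA nor CCAAT. The start of TACC3 in the table lies 859 bases upstream of its nearest start in GENCODE v29, so the window holds none of its GENCODE starts. The same is true of KIF11, whose start lies 156 bases upstream of its GENCODE start, and of KIFC1, 287 bases downstream, and both are counted here among the promoters with TTTGAA. The start of GAS2L3 is 1 of its GENCODE starts and lies 19935 bases downstream of the first, and other starts were not searched.

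**Figure D3:**
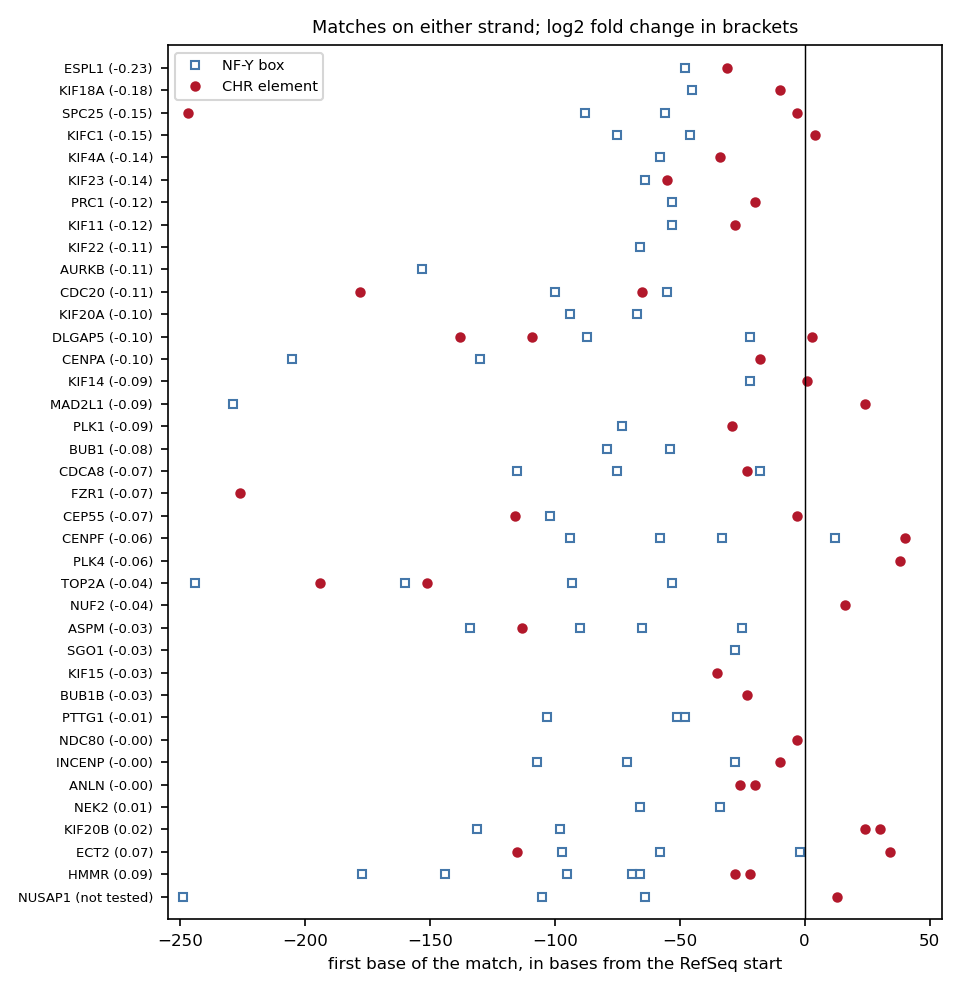
Position of the first base of each CHR match (TTTGAA, filled circles) and NF-Y match (CCAAT, open squares) on either strand, in bases from the RefSeq start (horizontal axis), for the genes of the set with at least 1 match, ordered by log2 fold change. In 27 of 44 promoters an NF-Y match lies in the 100 bases before the start, and in 15 a CHR match does.

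Among the 3 transcription regulators 1, or 33.3%, was called lower, FOXM1, beside 1.98% of all tested genes. FOXM1 is a forkhead factor that activates mitotic genes in G2, a protein-coding gene (ENSG00000111206.13) at chr12:2857681-2877155 on the minus strand of GRCh38. Its level was 93.3, 95.2 and 96.2 CPM in NC, and 84.1, 82.5 and 86.6 CPM in ORF-Flag, here and below in the order of replicates 1, 2 and 3. The groups did not overlap, and the NC libraries lay within 3 CPM of each other. On the log2 scale FOXM1 fell by 0.17 (standard error 0.04, edgeR with Benjamini-Hochberg adjustment, adjusted p = 0.0131, lower in 3 of 3 ORF-Flag libraries). The call held in 9 of 9 alternatives that kept the 6 libraries, and was lost without NC replicate 2 (adjusted p = 0.0587 in edgeR), ORF-Flag replicate 1 (0.0679) or ORF-Flag replicate 2 (0.0759). Of the exon bases of FOXM1, 15.9% lie in another gene on the opposite strand, whose reads could not be told apart here because the use of strand in counting is not given in the sources used here. MYBL2, which encodes B-MYB, the partner that turns MuvB into an activator, had 182, 163 and 168 CPM in NC and 161, 160.4 and 166.5 CPM in ORF-Flag. The groups overlapped, and the log2 fold change of -0.07 did not pass the test (edgeR with Benjamini-Hochberg adjustment, adjusted p = 0.362). It was -0.02 without NC replicate 1, and -0.02 with GC and length trends removed. LIN9, a core MuvB subunit, had 13.1, 11.5 and 12.9 CPM in NC and 11.7, 13.5 and 13.0 CPM in ORF-Flag. Its groups overlapped, and its log2 fold change of 0.02 (standard error 0.09) changed sign without NC replicate 2 (-0.03) or ORF-Flag replicate 2 (-0.01).

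Of the 8 mitotic kinases, 0 passed the adjusted test in edgeR or in DESeq2 and limma-voom, 6 had a log2 fold change below 0, and 1 (BUB1), or 12.5%, had an unadjusted p below 0.05 with a lower value, near the 9.22% of all tested genes. PLK1, the Polo-like kinase that drives mitotic entry and centrosome maturation, had 186.5, 168 and 163 CPM in NC and 161, 159 and 166 CPM in ORF-Flag. NC replicate 1 stood above the other 5 libraries, which overlapped. The log2 fold change was -0.09 (95% confidence interval -0.17 to 0.0001, edgeR with Benjamini-Hochberg adjustment, adjusted p = 0.27). Over the 15 alternatives the adjusted p lay between 0.0378 and 0.75, and PLK1 passed in 1 of them, edgeR without NC replicate 3 (0.0378, log2 fold change -0.13). The log2 fold change of PLK1 moved to -0.03 when NC replicate 1 was left out, and to -0.05 with GC and length trends removed. AURKA, the Aurora kinase of the spindle poles, had 176, 163 and 164 CPM in NC and 163, 157 and 169 CPM in ORF-Flag, and its log2 fold change of -0.04 had an interval from -0.12 to 0.04 and was -0.0033 without NC replicate 1. AURKB, the Aurora kinase of the chromosomal passenger complex, had 50.7, 42.9 and 43.4 CPM in NC and 42.1, 43.1 and 41.2 CPM in ORF-Flag. As in PLK1, NC replicate 1 was the high library, and the log2 fold change was -0.11 (edgeR with Benjamini-Hochberg adjustment, adjusted p = 0.313), and -0.04 without that library. BUB1, a checkpoint kinase at kinetochores, had 126, 121 and 127 CPM in NC and 121, 117 and 117 CPM in ORF-Flag. Its groups did not overlap, by less than 1 CPM between NC replicate 2 and ORF-Flag replicate 1, and it did not pass (log2 fold change -0.08, edgeR with Benjamini-Hochberg adjustment, adjusted p = 0.259). PLK4, which starts centriole duplication, also had groups that did not overlap, with a log2 fold change of -0.06. BUB1B, which encodes the checkpoint protein BUBR1, was at -0.03, and between -0.05 and -0.01 with 1 library left out. TTK and NEK2, a checkpoint kinase and a centrosome kinase, had log2 fold changes of 0.02 and 0.01, and both changed sign without NC replicate 2. Some counts are uncertain, since 15.7% of the 31-base stretches of AURKA and 16.99% of those of NEK2 also occur in another gene's transcript, 10.2% of the exon bases of BUB1B lie in BUB1B-PAK6 on the same strand, and 12.5% of those of PLK1 lie in a gene on the other strand.

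**Figure D4:**
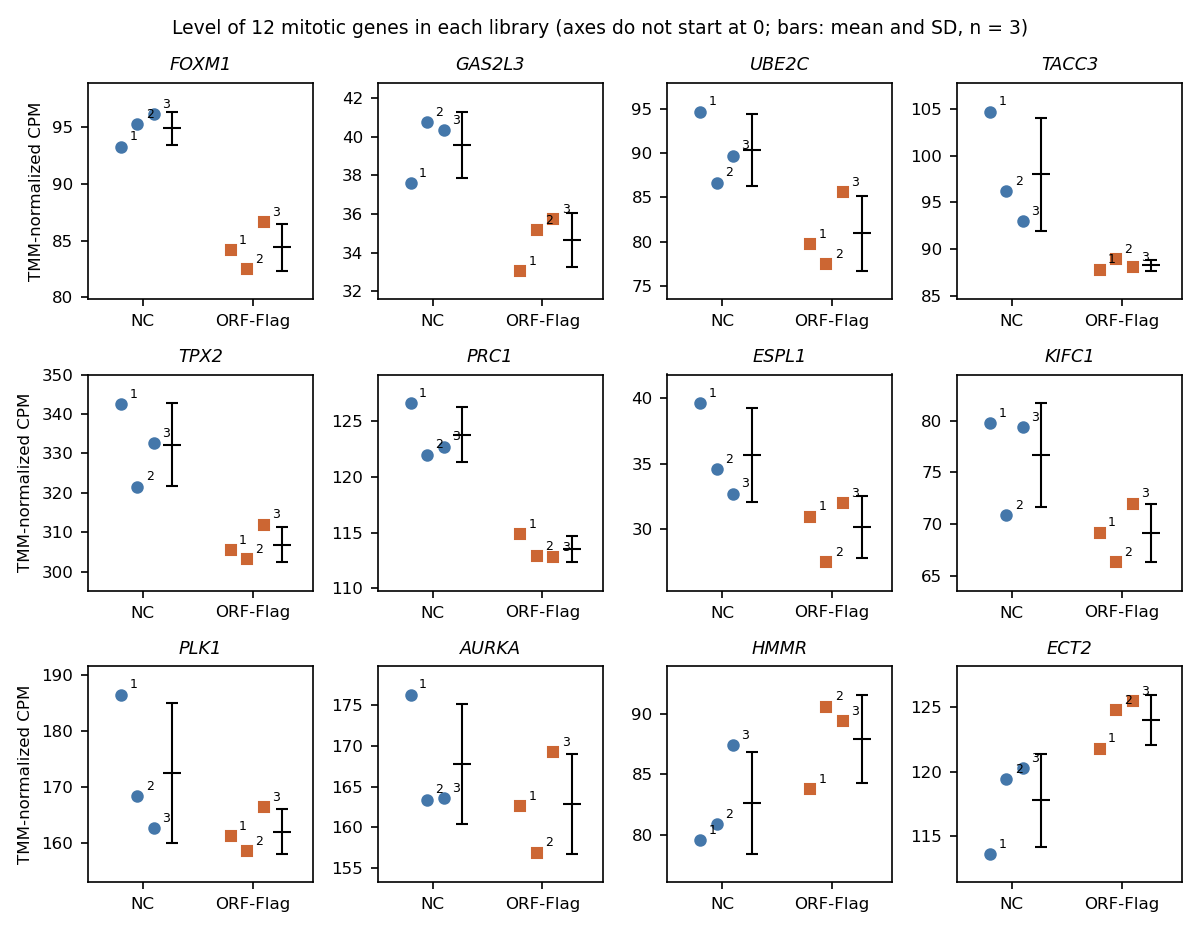
TMM-normalized CPM (vertical axes, which do not start at 0) of 12 genes of the set in each library, with the replicate number beside each point and the mean and SD (n = 3) at the right of each group. FOXM1, GAS2L3, UBE2C, TACC3, TPX2, PRC1 and ESPL1 have no overlap between groups, with ORF-Flag lower, ECT2 has none with ORF-Flag higher, and KIFC1, PLK1, AURKA and HMMR overlap.

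The 8 genes of the checkpoint, the APC/C and cohesion control held 1 call, UBE2C, the ubiquitin-conjugating enzyme that works with the APC/C. This call was 12.5% of the 8, beside 1.98% of all tested genes called lower. At an unadjusted p below 0.05 in edgeR 3 of the 8, or 37.5%, had a lower value, beside 9.22% of all tested genes. UBE2C is a protein-coding gene (ENSG00000175063.17) at chr20:45812576-45816957 on the plus strand of GRCh38. It had 94.7, 86.7 and 89.7 CPM in NC and 79.7, 77.5 and 85.6 CPM in ORF-Flag. The highest ORF-Flag library, replicate 3, lay just below the lowest NC library, replicate 2. The log2 fold change was -0.15 (standard error 0.04, edgeR with Benjamini-Hochberg adjustment, adjusted p = 0.049). The call was lost with DESeq2 (0.0696), limma-voom (0.0601) and library totals without TMM (0.0514), each an adjusted p. In edgeR it was also lost when NC replicate 1 (0.123), NC replicate 2 (0.0573), ORF-Flag replicate 1 (0.183) or ORF-Flag replicate 2 (0.211) was left out. ESPL1, which encodes separase, had the lowest log2 fold change of the set in the edgeR fit of 6 libraries, -0.23, from 39.6, 34.6 and 32.7 CPM in NC to 30.95, 27.5 and 32.0 CPM in ORF-Flag. The groups did not overlap, but NC replicate 3 and ORF-Flag replicate 3 lay within 1 CPM of each other, and the adjusted p was 0.0586 in edgeR with Benjamini-Hochberg adjustment. ESPL1 passed in 4 of the 15 alternatives, among them edgeR without NC replicate 3 (adjusted p = 0.00612, log2 fold change -0.29) and without a filter on low counts (0.00723). When NC replicate 1 was left out ESPL1 moved to -0.15 (0.229), and GAS2L3 was then lowest, as it was without ORF-Flag replicate 2 and with GC and length trends removed. CDC20, the APC/C activator that the checkpoint restrains, had 149, 138 and 140.4 CPM in NC and 134, 128 and 134 CPM in ORF-Flag. The groups did not overlap, and the log2 fold change of -0.11 did not pass (edgeR with Benjamini-Hochberg adjustment, adjusted p = 0.114). For CDC20, 23.6% of the 31-base stretches of its transcript also occur in another gene's transcript, so its count is uncertain. The 3 genes MAD2L1, FZR1 and SGO1, a checkpoint protein, the other APC/C activator and the protector of centromeric cohesion, were at -0.09, -0.07 and -0.03. With 1 library left out MAD2L1 lay between -0.14 and -0.05, SGO1 between -0.06 and -0.01, and FZR1 on both sides of 0. PTTG1, which encodes securin, was at -0.01, with its sign changed without NC replicate 3 (0.06), ORF-Flag replicate 1 (0.01) or ORF-Flag replicate 2 (0.01). BUB3, a checkpoint scaffold, was at 0.03, and at 0.0029 with GC and length trends removed. Another gene shares 15.3% of the 31-base stretches of PTTG1, and 17.7% of the exon bases of SGO1 lie in a gene on the other strand, so both counts are uncertain.

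The chromosomal passenger subunits had a median log2 fold change of -0.0010, the nearest to 0 among the roles in the edgeR fit of 6 libraries. BIRC5 (survivin), INCENP and CDCA8 (borealin) bring AURKB to centromeres and the midzone. Their log2 fold changes were 0.02, -0.0010 and -0.07, with groups that overlapped in each. INCENP changed sign with limma-voom (0.01) and with GC and length trends removed (0.05). CDCA8 was at -0.04 without NC replicate 1, and BIRC5 at -0.03 without NC replicate 2 and at 0.09 without NC replicate 1.

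At the centromere and kinetochore all 6 genes lay below 0 in the edgeR fit of 6 libraries, although NDC80 did not with limma-voom (0.0002), with 0 called by edgeR, DESeq2 or limma-voom and 2, or 33.3%, with an unadjusted p below 0.05 and a lower value, beside 9.22% of all tested genes. These 2 were SPC25, a subunit of the NDC80 complex, and CENPE, the kinesin that carries chromosomes to the spindle equator. SPC25 had 27.8, 28.8 and 28.0 CPM in NC and 25.5, 23.6 and 26.9 CPM in ORF-Flag. These groups did not overlap, and the log2 fold change was -0.15 (standard error 0.06, edgeR with Benjamini-Hochberg adjustment, adjusted p = 0.199). Another gene shares 19.0% of the 31-base stretches of SPC25, so its count is uncertain. CENPE had 68.6, 69.9 and 77.4 CPM in NC and 64.3, 65.0 and 69.2 CPM in ORF-Flag. Its groups overlapped by less than 1 CPM, and the log2 fold change was -0.12 (standard error 0.05, edgeR with Benjamini-Hochberg adjustment, adjusted p = 0.162). With GC and length trends removed CENPE passed (adjusted p = 0.0104 in edgeR, within a range of 0.0081 to 0.462 over the alternatives). Its log2 fold change moved to -0.07 when NC replicate 3 was left out. CENPA, the histone variant that marks centromeres, was at -0.10, and at -0.04 without NC replicate 1. CENPF was at -0.06, at -0.02 without NC replicate 3 and at -0.10 with GC and length trends removed. NDC80 and NUF2, the microtubule-binding subunits of the complex that holds SPC25, were at -0.0014 and -0.04, and both changed sign with a library left out. A difference between them and SPC25 was not tested.

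The kinesins had a median log2 fold change of -0.11, as had the spindle factors. Of the kinesins 7 of 11, or 63.6%, had an unadjusted p below 0.05 and a lower value, and of the spindle factors 4 of 6, or 66.7%, beside 9.22% of all tested genes, although of the kinesins 0 of 11 passed the adjusted test in edgeR, DESeq2 or limma-voom. KIF4A, a chromokinesin that organizes the midzone with PRC1, had 64.7, 60.3 and 62.8 CPM in NC and 56.7, 55.3 and 57.8 CPM in ORF-Flag. KIF23, the motor of centralspindlin, had 69.3, 67.5 and 69.1 CPM in NC and 61.4, 66.0 and 59.7 CPM in ORF-Flag. In both genes the groups did not overlap, and ORF-Flag replicate 2 of KIF23 came nearest to NC. Their log2 fold changes were both -0.14 (standard error 0.05 for each, edgeR with Benjamini-Hochberg adjustment, adjusted p = 0.0743 for KIF4A and 0.0756 for KIF23). Without a filter on low counts KIF23 passed (adjusted p = 0.0447 in edgeR). Of the 31-base stretches of KIF4A, 28.6% occur in another gene's transcript, so its count is uncertain. KIFC1, a minus-end motor that clusters centrosomes, had 79.8, 70.8 and 79.3 CPM in NC and 69.2, 66.3 and 72.0 CPM in ORF-Flag. NC replicate 2 lay among the ORF-Flag libraries, and without it the adjusted p in edgeR was 0.0328, where it was 0.0907 with all libraries. KIFC1 also passed without a filter on low counts (0.0288).

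The remaining 4 kinesins at an unadjusted p below 0.05 were KIF11, KIF18A, KIF20A and KIF22. KIF11, the motor that pushes spindle poles apart, had 112, 109 and 121 CPM in NC and 101, 104.5 and 109.8 CPM in ORF-Flag. KIF18A, which damps chromosome oscillation, had 23.3, 24.3 and 27.8 CPM in NC and 23.4, 21.5 and 21.9 CPM in ORF-Flag. In both genes the groups overlapped, and NC replicate 3 was the highest library. KIF20A, which carries the passenger complex to the midzone, had 91.0, 87.0 and 92.4 CPM in NC and 84.2, 82.0 and 85.0 CPM in ORF-Flag. KIF22, a chromokinesin, had 109, 99.2 and 100.5 CPM in NC and 95.6, 94.2 and 94.8 CPM in ORF-Flag. In these 2 genes the groups did not overlap, with NC replicate 2 the lowest of its group. The log2 fold changes of the 4 genes, in that order, were -0.12, -0.18, -0.10 and -0.11, and their adjusted p in edgeR with Benjamini-Hochberg adjustment were 0.127, 0.17, 0.147 and 0.114. Without NC replicate 3 the log2 fold change was -0.07 for KIF11 and -0.09 for KIF18A. That of KIF22 was -0.07 without NC replicate 1 and -0.08 with GC and length trends removed. With GC and length trends removed, KIF4A, KIF11, KIF18A, KIF20A and KIF23 passed, with adjusted p in edgeR of 0.0207, 0.0129, 0.0463, 0.0493 and 0.0142. Of the exon bases of KIF22, 13.0% lie in a gene on the other strand, and of those of KIFC1 12.7%, so these counts are uncertain. KIF14 was at -0.09, and at -0.06 without ORF-Flag replicate 1. KIF15 was at -0.03, and KIF2C, a microtubule depolymerase, and KIF20B were at 0.01 and 0.02, and all 3 values changed sign with a library left out.

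Among the spindle factors 6 of 7 genes were tested and 2, or 33.3%, were called lower, beside 1.98% of all tested genes. GAS2L3 encodes a linker of actin and microtubules that acts in late mitosis. It is a protein-coding gene (ENSG00000139354.11) at chr12:100573683-100628286 on the plus strand of GRCh38. It had 37.6, 40.8 and 40.4 CPM in NC and 33.1, 35.2 and 35.7 CPM in ORF-Flag, with no overlap. On the log2 scale GAS2L3 fell by 0.19 (standard error 0.06, edgeR with Benjamini-Hochberg adjustment, adjusted p = 0.0435). The call was lost with DESeq2 (0.074), and in edgeR when NC replicate 2 (0.188), NC replicate 3 (0.067), ORF-Flag replicate 1 (0.193), ORF-Flag replicate 2 (0.0952) or ORF-Flag replicate 3 (0.0898) was left out, each an adjusted p. TACC3, which stabilizes spindle microtubules with clathrin and is phosphorylated by AURKA, is a protein-coding gene (ENSG00000013810.21) at chr4:1721490-1745176 on the plus strand of GRCh38. It had 104.7, 96.2 and 93.0 CPM in NC and 87.8, 88.9 and 88.1 CPM in ORF-Flag. The ORF-Flag libraries lay close together and NC replicate 1 stood highest. The log2 fold change was -0.15 (standard error 0.04, edgeR with Benjamini-Hochberg adjustment, adjusted p = 0.0486). This call was lost with DESeq2 (0.0707), limma-voom (0.0635) and library totals without TMM (0.0522), each an adjusted p. In edgeR it was also lost when NC replicate 1 (0.159), NC replicate 2 (0.101), ORF-Flag replicate 1 (0.159), ORF-Flag replicate 2 (0.117) or ORF-Flag replicate 3 (0.17) was left out, and without NC replicate 3 the adjusted p was 0.0046.

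TPX2, the activator of AURKA on spindle microtubules, stood just outside the threshold. It had 343, 322 and 333 CPM in NC and 305.5, 303 and 312 CPM in ORF-Flag, with no overlap. The log2 fold change was -0.11 (standard error 0.03, edgeR with Benjamini-Hochberg adjustment, adjusted p = 0.0504), and TPX2 passed in 9 of the 15 alternatives, DESeq2 among them (adjusted p = 0.0335), over a range of 0.00462 to 0.187. DLGAP5, which bundles microtubules near chromosomes, had 72.6, 67.7 and 76.3 CPM in NC and 67.3, 66.4 and 68.3 CPM in ORF-Flag, with groups that overlapped. Its log2 fold change was -0.10 (standard error 0.05), and it did not pass (edgeR with Benjamini-Hochberg adjustment, adjusted p = 0.24). With 1 library left out the log2 fold change of DLGAP5 lay between -0.15 (NC replicate 2) and -0.06 (NC replicate 3). ASPM, a spindle pole protein, was at -0.03, at -0.07 without NC replicate 1, at 0.00 without NC replicate 3 and at -0.08 with GC and length trends removed. HMMR, a microtubule-associated protein of the spindle poles, had the highest log2 fold change of the set in the edgeR fit of 6 libraries, 0.09, from 79.6, 80.9 and 87.4 CPM in NC to 83.8, 90.6 and 89.4 CPM in ORF-Flag. Its groups overlapped, and it did not pass (edgeR with Benjamini-Hochberg adjustment, adjusted p = 0.315). Its log2 fold change was 0.05 with GC and length trends removed and 0.13 without NC replicate 3. BIRC5 was highest without NC replicate 1, and ECT2 without NC replicate 2 or ORF-Flag replicate 2.

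NUSAP1, which bundles spindle microtubules near chromatin, was the gene left out by the filter on low counts. It had 1, 6 and 3 counts in NC replicates 1, 2 and 3 and 3, 2 and 2 counts in ORF-Flag, at or near the limit of 3 counts. NC replicate 1 was the lowest library and NC replicate 2 the highest, and no fold change is given. In GENCODE v29, 62.2% of its exon bases lie in exons of the protein-coding gene model AC087721.2 on the same strand, which itself had 0 counts in each library, and 70.6% of its 31-base stretches occur in another gene's transcript. A part of this overlap in the low count was not tested.

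In cytokinesis 0 of 5 genes were called by edgeR, DESeq2 or limma-voom, and 1, PRC1, or 20%, had an unadjusted p below 0.05 with a lower value, beside 9.22% of all tested genes. PRC1 cross-links the antiparallel microtubules of the midzone. It had 127, 122 and 123 CPM in NC and 115, 113 and 113 CPM in ORF-Flag, with no overlap, a log2 fold change of -0.12 (standard error 0.04) and an adjusted p of 0.0513 in edgeR with Benjamini-Hochberg adjustment. PRC1 passed in 7 of the 15 alternatives, among them edgeR without NC replicate 3 (0.0325), without a filter on low counts (0.0381) and with GC and length trends removed (0.0104), over a range of 0.00937 to 0.204. Of its exon bases, 57.6% lie in exons of the gene model AC068831.7 on the same strand, which had 0 counts in each library, and the level of PRC1 is uncertain. ECT2, the exchange factor that activates RhoA at the cleavage plane, had 114, 119 and 120.3 CPM in NC and 122, 125 and 125.5 CPM in ORF-Flag. It was the gene of the set whose ORF-Flag libraries all lay above NC, by 2 CPM or less at the nearest point, and its log2 fold change of 0.07 did not pass (edgeR with Benjamini-Hochberg adjustment, adjusted p = 0.294), and was 0.04 with GC and length trends removed. RACGAP1, the partner of KIF23 in centralspindlin, and CEP55, the abscission scaffold, were both at -0.07 with overlapping groups. With 1 library left out RACGAP1 lay between -0.13 and -0.03 and CEP55 between -0.10 and -0.02, the values nearest to 0 being those without NC replicate 3. ANLN, the scaffold of the contractile ring, was at -0.0004, with ORF-Flag libraries between 98.1 and 107 CPM on either side of NC.

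TOP2A, which untangles sister chromatids, was the most abundant gene of the set per length. Per kilobase of exon it reached a mean of 103.7 FPKM over the 6 libraries, followed by TPX2 at 88.6 FPKM, CDC20 at 67.2 FPKM, UBE2C at 66.6 FPKM and MYBL2 at 60.1 FPKM. LIN9 was lowest among the tested genes, at 2.84 FPKM, after FZR1 at 3.05 FPKM and ESPL1 at 3.70 FPKM. The levels of CDC20 and UBE2C differed by less than the spread between libraries. By library TOP2A had 656, 664 and 709 CPM in NC and 643, 654 and 681 CPM in ORF-Flag. These values overlapped, and the log2 fold change was -0.04 (95% confidence interval -0.11 to 0.04, edgeR with Benjamini-Hochberg adjustment, adjusted p = 0.639). It was -0.0017 without NC replicate 3 and -0.07 with GC and length trends removed.

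Beyond the set, 124 other mitotic genes were listed and 123 tested. Of these, 78 lay below 0, and the median log2 fold change was -0.03. By edgeR 2 were called lower and 2 higher, and at an unadjusted p below 0.05 there were 20 lower and 7 higher, or 16.3% and 5.69%. Over all tested genes 9.22% were lower and 9.29% higher at that p, and the calls, 1.63% in each direction, stood beside 1.98% lower and 2.47% higher. The 2 called lower were PKMYT1, an inhibitory kinase of CDK1, and MKI67, which coats mitotic chromosomes. PKMYT1 had 34.6, 31.9 and 31.5 CPM in NC and 29.6, 28.0 and 26.5 CPM in ORF-Flag. Its groups did not overlap, and the log2 fold change was -0.22 (standard error 0.06, edgeR with Benjamini-Hochberg adjustment, adjusted p = 0.0435). Of its exon bases 31.6% lie in a gene on the other strand, so its count is uncertain. The call of PKMYT1 was lost with DESeq2 (0.0731) and with GC and length trends removed (0.11), and in edgeR when NC replicate 1 (0.122), NC replicate 2 (0.1), ORF-Flag replicate 2 (0.115) or ORF-Flag replicate 3 (0.25) was left out, each an adjusted p. MKI67 had 551, 523 and 569.6 CPM in NC and 506, 495 and 508 CPM in ORF-Flag, with no overlap and a log2 fold change of -0.12 (edgeR with Benjamini-Hochberg adjustment, adjusted p = 0.0374). It lost its call when NC replicate 3 (0.0726), ORF-Flag replicate 1 (0.103), ORF-Flag replicate 2 (0.167) or ORF-Flag replicate 3 (0.12) was left out of the edgeR fit.

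The 2 called higher were CKS1B, a subunit of CDK1 complexes, and SPC24, the partner of SPC25 in the NDC80 complex. CKS1B had 72.9, 64.3 and 73.8 CPM in NC and 82.0, 79.3 and 84.7 CPM in ORF-Flag. These groups did not overlap, and the log2 fold change was 0.22 (edgeR with Benjamini-Hochberg adjustment, adjusted p = 0.00826), with the call lost when NC replicate 2 (0.0849) or ORF-Flag replicate 3 (0.0737) was left out. Other genes share 26.4% of the 31-base stretches of CKS1B, so its count is uncertain. SPC24 had 23.9, 25.3 and 25.7 CPM in NC and 27.9, 29.1 and 30.3 CPM in ORF-Flag. Each ORF-Flag library lay above each NC library, and the log2 fold change was 0.22 (standard error 0.06, edgeR with Benjamini-Hochberg adjustment, adjusted p = 0.0421). The call of SPC24 was lost with DESeq2 (0.0795), and in edgeR when NC replicate 1 (0.093), NC replicate 2 (0.112), ORF-Flag replicate 1 (0.0577), ORF-Flag replicate 2 (0.112) or ORF-Flag replicate 3 (0.227) was left out, each an adjusted p.

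**Figure D5:**
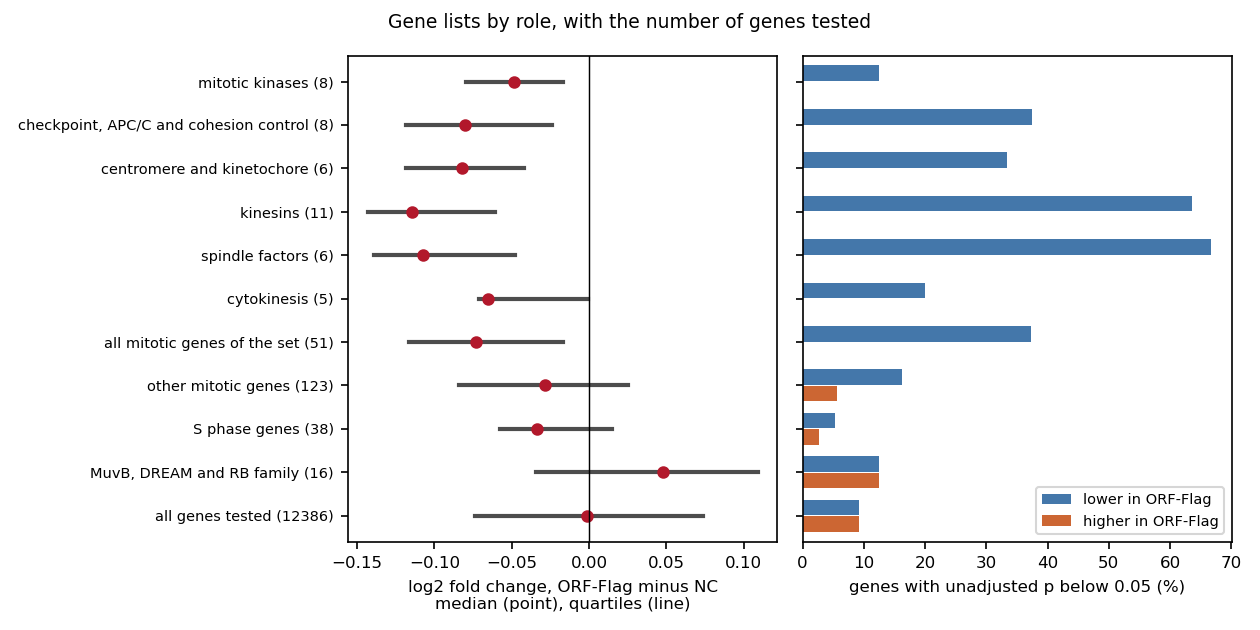
Left, median (point) and quartiles (line) of the log2 fold change for 6 roles of the set, the whole set, the compared lists and all tested genes, with the number of genes tested in brackets. Right, share of each list with an unadjusted p below 0.05 in edgeR in each direction, which is 37.3% lower and 0 higher for the set and 9.22% lower and 9.29% higher for all tested genes.

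S phase genes, which replicate DNA before mitosis, numbered 38, of which 25 lay below 0, with a median log2 fold change of -0.03. Of these, 2 had an unadjusted p below 0.05 with a lower value and 1 with a higher value, or 5.26% and 2.63%, below the shares of all tested genes. By edgeR 1 of the 38, or 2.63%, was called lower, near the 1.98% of all tested genes, and 0 were called higher, beside 2.47%. The gene called lower was POLD1, the catalytic subunit of DNA polymerase delta. It had 30.5, 29.9 and 28.4 CPM in NC and 24.9, 24.2 and 23.9 CPM in ORF-Flag. Each ORF-Flag library lay below each NC library, and the log2 fold change was -0.28 (standard error 0.06, edgeR with Benjamini-Hochberg adjustment, adjusted p = 0.00803). When ORF-Flag replicate 3 was left out the adjusted p in edgeR was 0.0579, and POLD1 passed in the other 14 alternatives. A difference between the set and the S phase genes was not tested.

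A list of 16 genes of the MuvB, DREAM and RB family proteins and their regulators, which repress or activate mitotic transcription, had 6 genes below 0 and a median log2 fold change of 0.05, and edgeR called 1 lower and 1 higher, or 6.25% each, beside 1.98% and 2.47% of all tested genes. At an unadjusted p below 0.05 there were 2 in each direction, or 12.5%, beside 9.22% lower and 9.29% higher. CDKN1A, which encodes the p21 inhibitor of cyclin-dependent kinases, had 42.5, 37.6 and 40.4 CPM in NC and 51.7, 51.5 and 53.2 CPM in ORF-Flag. Each ORF-Flag library lay well above each NC library. The log2 fold change was 0.38 (standard error 0.05, edgeR with Benjamini-Hochberg adjustment, adjusted p = 5.67e-05), and the call held in 15 of 15 alternatives. E2F4, a repressor subunit of DREAM, had 47.9, 47.9 and 46.8 CPM in NC and 41.6, 42.6 and 41.6 CPM in ORF-Flag. Its groups did not overlap, and the log2 fold change was -0.18 (standard error 0.05, edgeR with Benjamini-Hochberg adjustment, adjusted p = 0.0308). The call of E2F4 was lost with DESeq2 (0.0521) and with GC and length trends removed (0.0544), and in edgeR when NC replicate 1 (0.0581), NC replicate 2 (0.126), ORF-Flag replicate 1 (0.107), ORF-Flag replicate 2 (0.0792) or ORF-Flag replicate 3 (0.136) was left out, each an adjusted p. With DESeq2 1 of the 16 genes was thus called, CDKN1A. A link between CDKN1A or E2F4 and the mitotic genes was not tested.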

How the data were processed

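RNA was extracted with TRIzol, and libraries were made with a VAHTS universal kit, per the labels. The submitters' processing notes name cutadapt 1.11, HISAT2 2.1.0, featureCounts 1.6.0, edgeR and GRCh38. The authors deposited counts as 1 table of whole numbers of reads for each gene, not normalized. The strand setting and the annotation release are not given in the sources used here. Identifiers were matched to symbols for 20421 of 20422 genes, and no row lacked a gene name. Between replicates of a group, chi-square per degree of freedom over genes with at least 20 counts lay between 2.39 and 5.23, above sampling noise. Counts were tested with edgeR 4.0.16 in R 4.3.3 (filterByExpr, TMM, glmQLFit and glmQLFTest, Benjamini-Hochberg adjustment over all tested genes), after tests on simulated data. Alternatives were DESeq2 1.42.0, limma-voom (limma 3.58.1), other scaling and filters, offsets for GC content and length fitted with mgcv 1.9.3, the replicate number as a block, an adjusted p below 0.10 and leaving out each library. FPKM used CPM and exon lengths of GENCODE v29. Values in each library were given for genes of the set called in edgeR, then by rising p up to 20 genes, for the extremes of FPKM, for PLK1, AURKA, AURKB, FOXM1 and MYBL2, and for called genes of the other mitotic, S phase and MuvB lists. HMMR and ECT2, and NUSAP1, which was not tested, lie outside this rule and were chosen after their values were seen. The genes, roles and lists were chosen with earlier results of these data known. Figures were drawn with matplotlib 3.10.9.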

Additional observations from a re-analysis of the deposited data

How the results depend on the processing

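The median log2 fold change of the 51 genes lay between -0.10 and -0.05 over the leave-one-out fits and between -0.08 and -0.07 over the other alternatives, below 0 in each. The set had 4 genes called lower. This number was 2 with DESeq2, 2 with limma-voom, 9 without a filter on low counts, 12 with GC and length trends removed and 10 at an adjusted p below 0.10, and from 0 to 7 with 1 library left out. The number with an unadjusted p below 0.05 and a lower value (19) lay between 12 and 24 with 1 library left out, and that with a higher value (0) between 0 and 2. All calls (551) were 431 with DESeq2, 527 with limma-voom, 824 without a filter and 807 with GC and length trends removed. They were 914 at an adjusted p below 0.10 and from 199 to 1058 with 1 library left out. Of the other mitotic genes, 2 were called lower, and 6 without a filter, 9 with GC and length trends removed, 8 at an adjusted p below 0.10 and 0 to 4 with 1 library left out. Of them 2 were called higher, and 1 with DESeq2, 4 with GC and length trends removed, 4 at an adjusted p below 0.10 and 0 to 4 with 1 library left out. S phase genes called lower (1) were 2 without a filter, 2 with GC and length trends removed, 2 at an adjusted p below 0.10 and 0 to 1 with 1 library left out. MuvB, DREAM and RB family genes called (2) were 1 with DESeq2 and 1 to 3 with 1 library left out. Signs changed for 13 genes that were not called. With GC and length trends removed the log2 fold change was -0.0018 for LIN9, -0.0178 for KIF20B, -0.0219 for NEK2 and 0.0469 for INCENP, and with limma-voom it was 0.0002 for NDC80 and 0.0095 for INCENP. With 1 library left out it lay between -0.0344 and 0.0823 for LIN9, -0.1652 and 0.0026 for FZR1, -0.0622 and 0.0017 for NUF2, -0.0158 and 0.0708 for KIF20B, -0.0689 and 0.0334 for KIF15, -0.0148 and 0.0502 for TTK, -0.0264 and 0.0877 for BIRC5, -0.0369 and 0.0453 for KIF2C, -0.0647 and 0.0565 for PTTG1, -0.0219 and 0.039 for NEK2, -0.0403 and 0.0408 for NDC80, -0.0628 and 0.0495 for INCENP, and -0.0351 and 0.0324 for ANLN. Leaving out a library leaves fewer samples, and otherwise the cause was not tested.

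With the replicate number as a block (replicate block), 731 genes were called in all, beside 551 without it. Of the set 9 genes were called lower, and 2 had an unadjusted p below 0.05 and a higher value. With this block 5 other mitotic genes were called lower, and the log2 fold change of ANLN was 0.0003. The 9 were the 4 genes called without the block, and ESPL1, PRC1, TPX2, KIF4A (adjusted p = 0.0478) and KIFC1 (0.0321). With the replicate block and GC and length trends removed, 854 genes were called in all, 15 genes of the set, 10 other mitotic genes and 2 S phase genes lower, and the log2 fold change was -0.0027 for LIN9, 0.0019 for FZR1, -0.0216 for KIF20B, -0.0058 for TTK, -0.0228 for NEK2 and 0.0426 for INCENP. Beside the fit with these trends removed and no block, TACC3 was no longer called (adjusted p = 0.0535), and ESPL1 (0.0381), BUB1 (0.0389), CENPF (0.0205) and DLGAP5 (0.0354) were. PKMYT1 (0.121 with the block) and E2F4 (0.063) were called in neither. The numbers were not taken to pair the libraries, because deviations of libraries with the same number correlated at 0.067, 0.027 and 0.045 across genes. ORF-Flag replicates 1 and 3 correlated best with the NC library of the same number, and ORF-Flag replicate 2 with NC replicate 3 (0.030). Libraries of different numbers correlated between -0.078 and 0.030. Of 870 values of 58 named genes under 15 alternative fits, 738 kept their direction and side of the threshold, 53 lost a call, 41 gained one and 38 changed sign. The filter on low counts left out NUSAP1, and without that filter 52 of the 52 genes were tested.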
